A study of Mus musculus with 18 samples.

Results

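The genes described here are 10 components of bone morphogenetic protein (BMP) and SMAD signalling, taken by symbol from a table of 16383 genes. They are the receptor SMADs Smad5 and Smad1, the inhibitory SMADs Smad6 and Smad7, the target genes Id1, Id2 and Id3, the type I receptor Bmpr1a, the ligand Bmp4 and the co-receptor Tgfbr3. All 10 were in the table and all 10 passed the filter on low values, a level of at least 1 CPM (read counts scaled to the total reads of a library) in at least 4 libraries. Smad5 and Tgfbr3 were chosen for how they differed between knockdown and control in these same libraries, so their values in that comparison are given as a description, with no test.

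RNA-seq was run on 18 libraries of 6 PDAC (pancreatic ductal adenocarcinoma) lines, derived from spontaneous metastases in mice, after lentiviral knockdown of Gstt1, a glutathione S-transferase. There were 10 knockdown libraries, 6 with Gstt1 shRNA 1 and 4 with Gstt1 shRNA 2, and 8 libraries with an NT control hairpin. The lung metastatic lines were 42-3 and 6-2, and the liver metastatic lines were 42-2, G45-2, 6-3 and 13-2. The genotype labels name SIRT6F/F, p48-Cre and p53F/+ alleles for the first 42-3 libraries, SIRT6F/F, p48+ and Tp53F/+ for all others but 13-2, and p48+ and Tp53F/+ for 13-2, with no SIRT6 allele. The p53 and p48 alleles were thus shared by knockdown and control cells, and p48 (Ptf1a) drives Cre recombinase in the pancreatic lineage. All cells were grown in RPMI with 10% fetal bovine serum, selected with puromycin for 48 h and collected after one split, with no BMP ligand named as added. The knockdown libraries of a line, together with its NT control, are called a culture set here. There were 8 sets, 3 of lung lines and 5 of liver lines, since lines 42-3 and 42-2 each gave a first and a second set, and G45-2 and 6-3 each had both hairpins. The labels do not say that libraries of one line came from separate cultures, so p-values measure the spread between these libraries, which may in part be technical.

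BMPs bind a complex of type I receptors, such as BMPR1A, and type II receptors, which phosphorylates SMAD1, SMAD5 and SMAD9. These join SMAD4, enter the nucleus and activate genes such as Id1, Id2 and Id3, whose proteins bind basic helix-loop-helix factors and keep them from DNA. SMAD6 and SMAD7 are induced by the pathway and inhibit it, and TGFBR3 (betaglycan) presents TGF-beta and inhibin to their receptors and also binds BMPs. In pancreatic cancer the related TGF-beta branch is known for loss of SMAD4.

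Library depth was 8411436 to 25552912 reads, at which 3 reads equal 0.117 to 0.357 CPM. Gstt1 was lower than in its own NT control in all 10 knockdown libraries. It stood at 0.00613 to 0.754 of the control level, with the smallest reductions for shRNA 1 in 6-3 (19.2 against 25.4 CPM) and in G45-2 (23.9 against 43.8 CPM). In line 42-2 the NT controls themselves held only 2.67 and 0.616 CPM of Gstt1. In 5 sets (42-3 first, 42-3 second, 6-2, 13-2 and 42-2 first), at least 2 of 7 transcripts from sex chromosomes or the Cdkn2 locus, with 10 CPM or more in one library, were at least 10-fold apart between knockdown and control. Ddx3y, for example, was at 0 CPM in the knockdown and 222 CPM in the NT control of the first 42-3 set. Xist was at 197 CPM in that knockdown library and 0.0736 CPM in its NT control. In the rest of these 5 sets Xist was at 0.201 CPM or less in every library. All 3 lung sets are among these 5, so that the knockdown difference of each of the 10 genes is also given without them, on the remaining G45-2, 6-3 and second 42-2 sets. At a limit of 1 CPM in place of 10 the second 42-2 set also differed, in 4 of 7 transcripts. Without it as well, Smad6 was at -1.29, Bmp4 at -0.33 and Smad7 at 0.03 on the log2 scale used below, and Smad5 at 0.92. Ductal epithelial markers, 10 of 10 in the table, summed to 414 to 7785 CPM in knockdown and 572 to 15255 CPM in NT control libraries. Fibroblast markers, 8 of 10 in the table, summed to 4.16 to 6453 CPM in knockdown and 6.13 to 2920 CPM in NT control libraries, and macrophage and leukocyte markers, 5 of 9, to 20.6 to 226 and 95.1 to 875 CPM. Among the latter, Cd14 alone reached 220 and 858 CPM, and Ptprc and Csf1r were at most 1.67 and 1.91 CPM in any library. Hepatocyte markers, 4 of 6 in the table, summed to 0.137 to 292 CPM in knockdown and 0.308 to 315 CPM in NT control libraries. Of these, Hnf4a alone reached 251 and 313 CPM. Endothelial and lung epithelial markers summed to at most 12.2 and 5.88 CPM in any library. Control and knockdown carry different library codes in lines 6-3 and 13-2.

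Smad5, a receptor SMAD of the BMP branch, was higher after Gstt1 knockdown in 8 of 8 culture sets, and its lowest knockdown library lay above its highest control library. In the lung sets Smad5 (ENSMUSG00000021540) was at 123, 99.5 and 128 CPM after knockdown in 42-3 first, 42-3 second and 6-2, against 75.5, 66.3 and 66.8 CPM in their NT controls. Among liver lines, Smad5 was at 109 CPM in 42-2 first, 88.3 CPM in 42-2 second, 160 and 147 CPM in G45-2 (shRNA 1 and shRNA 2), 86.7 and 117 CPM in 6-3 and 87.7 CPM in 13-2 after knockdown. The matching liver NT controls held 69.7, 66.9, 83.7, 50.6 and 76.3 CPM of Smad5. The groups did not overlap, with 86.7 CPM as the lowest knockdown value and 83.7 CPM as the highest control value, a margin of a few CPM that rested on 6-3 with shRNA 1 and on the G45-2 control. Smad5 averaged 115 ± 25.4 CPM in knockdown libraries (SD, n = 10) and 69.5 ± 9.76 CPM in NT control libraries (SD, n = 8). Of all 12931 genes tested, 0.101% lay with every knockdown library above every control library, and 1.34% were higher in 8 of 8 sets. Since Smad5 was chosen for this pattern, nothing is read from these shares. In bulk RNA, a change in the share of cells with the transcript and a change in transcript per cell cannot be told apart.

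**Figure D1:**
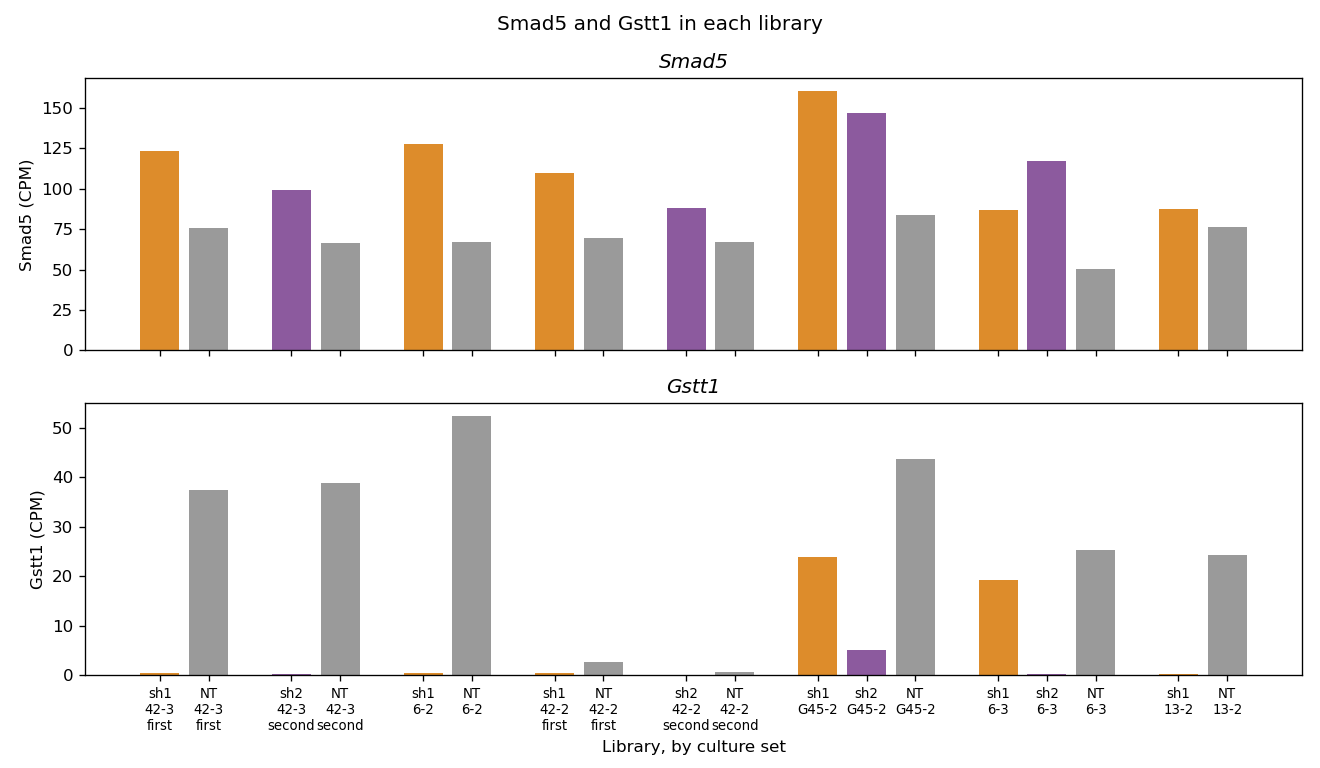
Smad5 (top) and Gstt1 (bottom) in CPM in each library, grouped by culture set, with knockdown libraries left of their NT control. Smad5 is higher in each knockdown library than in its own control, between 86.7 and 160 CPM against 50.6 to 83.7 CPM, while Gstt1 is lower in each.

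On the log2(CPM + 1) scale, on which differences are given throughout and on which changes of low genes look smaller, the Smad5 difference averaged 0.66 ± 0.27 over the 8 sets (SD). The largest was 0.98 in 6-3 and the smallest 0.20 in 13-2. Lung sets averaged 0.73 ± 0.17 (SD, n = 3) and liver sets 0.62 ± 0.32 (SD, n = 5). The hairpins gave like levels, 116 ± 27.7 CPM for shRNA 1 (SD, n = 6) and 113 ± 25.5 CPM for shRNA 2 (SD, n = 4). Gstt1 and Smad5 are set side by side for sets at either end. In 6-3, shRNA 1 left Gstt1 at 0.754 of control and Smad5 was 1.71-fold the control, and shRNA 2 left it at 0.00982 of control and Smad5 was 2.32-fold the control. In 13-2 Gstt1 was at 0.0116 of control and Smad5 was 1.15-fold the control. In the second 42-2 set, whose control held 0.616 CPM of Gstt1, Smad5 was 1.32-fold the control. The fitted Smad5 difference was 0.69 (SE 0.14) over all sets and 0.77 (SE 0.21) without the 5 sets of differing sex chromosome or Cdkn2 transcripts.

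The promoters of Smad5 and of 3 genes that BMP signalling is known to activate are shown so that the letters of 2 motifs tied to SMAD binding can be read in them. The sequences are the 250 bases before the transcript start from RefSeq on GRCm38.p6 (the deposited values were made on mm9), with 7 of the 10 genes matched. Smad5 (the first of 3 listed starts) lies at chr13:56702760-56703009 on the plus strand, Smad6 at chr9:64022060-64022309 on the minus strand, Id2 at chr12:25096093-25096342 on the minus strand and Id3 at chr4:136143572-136143821 on the plus strand. Capitals mark GGCGCC, which reads the same on both strands, and GTCT or its reverse complement AGAC, and the motifs do not share letters.
Smad5: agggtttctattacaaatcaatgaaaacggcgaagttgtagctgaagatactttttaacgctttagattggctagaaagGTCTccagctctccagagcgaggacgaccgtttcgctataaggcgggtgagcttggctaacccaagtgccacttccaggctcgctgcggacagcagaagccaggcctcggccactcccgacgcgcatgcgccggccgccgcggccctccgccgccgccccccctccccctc
Smad6: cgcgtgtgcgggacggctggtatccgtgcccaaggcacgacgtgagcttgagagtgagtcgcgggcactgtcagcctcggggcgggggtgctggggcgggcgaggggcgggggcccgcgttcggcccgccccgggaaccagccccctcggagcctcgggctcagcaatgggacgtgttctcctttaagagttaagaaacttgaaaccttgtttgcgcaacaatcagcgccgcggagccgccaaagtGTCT
Id2: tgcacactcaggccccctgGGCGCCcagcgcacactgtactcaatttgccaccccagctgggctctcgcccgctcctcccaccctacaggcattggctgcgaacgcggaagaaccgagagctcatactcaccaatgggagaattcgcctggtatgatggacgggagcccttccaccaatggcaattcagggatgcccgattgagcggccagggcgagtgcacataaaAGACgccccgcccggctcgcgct
Id3: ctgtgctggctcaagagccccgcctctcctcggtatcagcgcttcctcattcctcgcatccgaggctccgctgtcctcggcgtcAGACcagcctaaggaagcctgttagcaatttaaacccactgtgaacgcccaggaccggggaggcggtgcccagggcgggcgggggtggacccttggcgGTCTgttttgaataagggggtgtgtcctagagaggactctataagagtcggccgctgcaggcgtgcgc
GGCGCC was found 1 time in the Id2 window and not in those shown of Smad5, Smad6 or Id3, though 1 of the other 2 Smad5 start windows held it. GTCT was found on either strand 1 time in each of the Smad5, Smad6 and Id2 windows and 2 times in that of Id3. Of 32851 mouse promoter windows of this length, 9.59% held GGCGCC and 82.9% held GTCT on either strand. A match is a description of the letters and not evidence of binding.

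Smad1, the receptor SMAD closest to Smad5, was lower after knockdown in 5 of 8 sets and its groups overlapped. Lung-line levels of Smad1 (ENSMUSG00000031681) were 104, 110 and 139 CPM after knockdown (42-3 first, 42-3 second, 6-2), against 151, 136 and 119 CPM in NT controls. Liver knockdown libraries held 98.1, 152, 129 and 121, 171 and 118, and 119 CPM of Smad1 (42-2 first, 42-2 second, both hairpins of G45-2, both of 6-3, then 13-2), against 197, 144, 157, 131 and 229 CPM in their NT controls. The highest values were in the 13-2 and first 42-2 controls. The mean difference was -0.31 (SE 0.18) and did not pass the test (limma with Benjamini-Hochberg adjustment, adjusted p = 0.385), and it was -0.02 without the 5 sets. Smad5 and Smad1 thus differed in the sign of their mean difference, which was not tested as a contrast between genes.

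Of the 8 genes tested for knockdown, 0 were called by limma with Benjamini-Hochberg adjustment, where 0.0387% of all 12931 genes were called. Gstt1 itself, at -3.27 (SE 0.67), was not called in this fit either (adjusted p = 0.0820, limma with Benjamini-Hochberg adjustment). A count of 0 called is thus not evidence of no change. Bmp4 and Id1 had an unadjusted p under 0.05 in limma, and Id1 alone in edgeR, which also called 0. Of all genes, 17.1% had such a p in limma and 15.1% in edgeR.

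**Figure D2:**
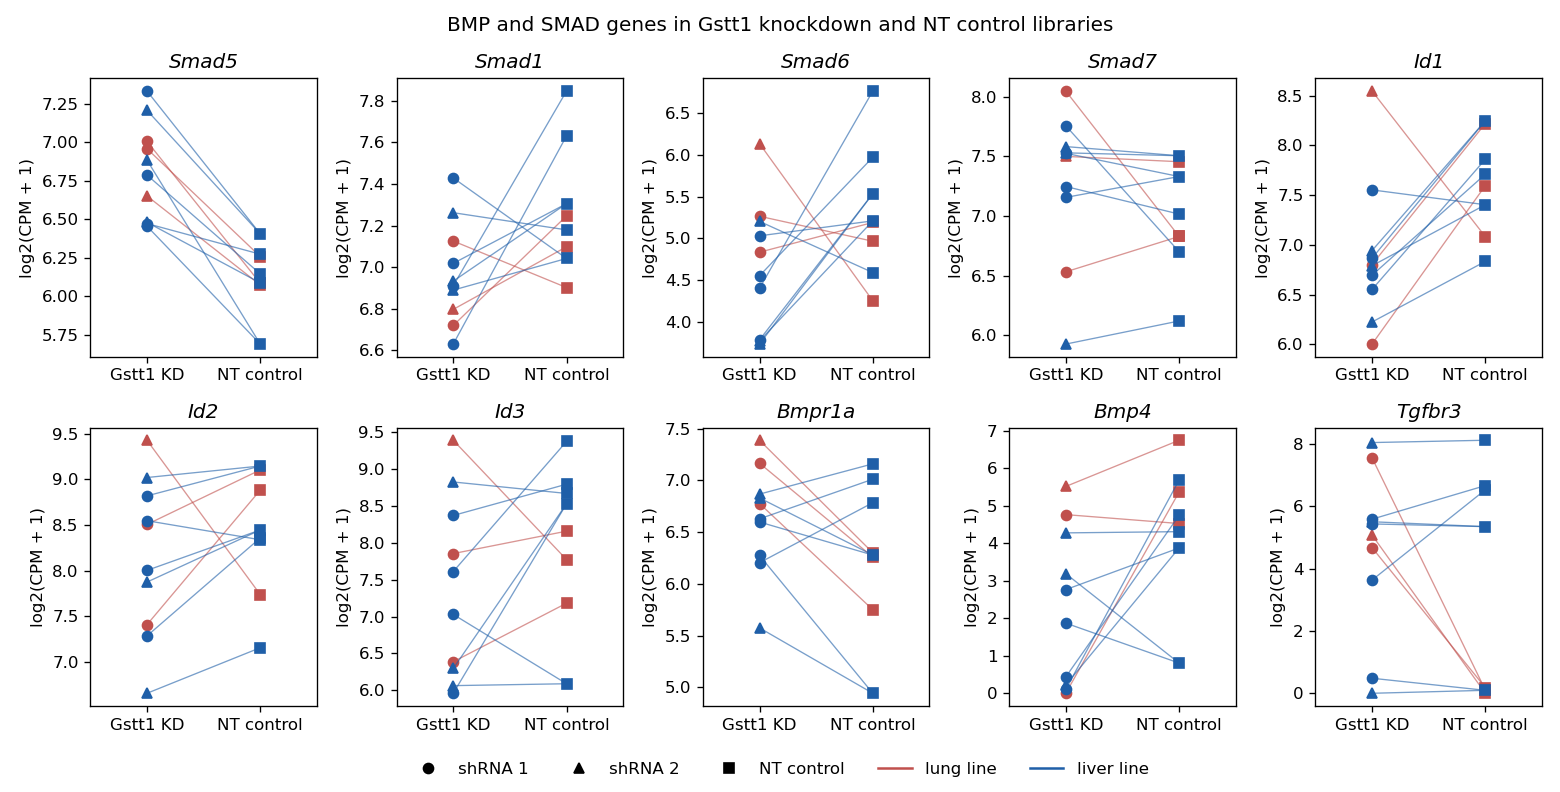
Levels of the 10 genes as log2(CPM + 1) in 10 Gstt1 knockdown libraries (left in each panel) and 8 NT control libraries (right). Circles are shRNA 1, triangles shRNA 2 and squares NT control, in red for lung and blue for liver lines, with lines joining a knockdown library to its own control. Smad5 is higher in each pair, and the other panels overlap.

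Smad6, an inhibitory SMAD induced by BMP signalling, was lower after knockdown in 4 of 5 liver sets and in 1 of 3 lung sets. Lung-line levels of Smad6 (ENSMUSG00000036867) were 37.5, 69.4 and 27.5 CPM after knockdown (42-3 first, 42-3 second, 6-2), against 30.3, 18.1 and 35.6 CPM in NT controls. Liver knockdown libraries held 20.2, 35.9, 12.8 and 12.3, 31.7 and 12.7, and 22.5 CPM of Smad6 (same order as for Smad1), against 108, 23.1, 45.4, 36.0 and 61.9 CPM in their NT controls. The second 42-2 set alone among liver sets was higher after knockdown. Over all sets the difference was -0.51 (SE 0.42, adjusted p = 0.563, limma with Benjamini-Hochberg adjustment) and -0.74 without the 5 sets. It was -0.24 without G45-2 and -0.90 without 42-3 second. By site, the effect was 0.61 (SE 0.57) in lung sets and -1.17 (SE 0.41) in liver sets, and the difference of lung minus liver was 1.78 (SE 0.70, unadjusted p = 0.0264, limma). After Benjamini-Hochberg adjustment in limma it did not pass (adjusted p = 0.197), where 0.503% of all genes were called in this comparison. It lay between 1.14 and 2.26 with each set left out in turn, and edgeR did not call it either (adjusted p = 0.248, Benjamini-Hochberg). The culture set was the block in this fit, so lines 42-3 and 42-2 each entered by 2 sets. Site differs between lines, of which there were 2 lung and 4 liver. The SE and p of lung minus liver may thus overstate the replication of site, here and for Bmpr1a below.

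Smad7, the inhibitory SMAD shared by the BMP and TGF-beta branches, differed by little in 6 of 8 sets. For lung lines, Smad7 (ENSMUSG00000025880) was at 91.5, 180 and 263 CPM after knockdown, against 113, 174 and 113 CPM in NT controls (42-3 first, 42-3 second, 6-2). For liver lines, Smad7 was at 151, 59.8, 142 and 183, 184 and 190, and 215 CPM after knockdown, against 128, 68.5, 160, 181 and 103 CPM in their NT controls. The differences of 1.22 in 6-2 and 1.06 in 13-2 stood apart from the other 6, which lay between -0.30 and 0.23. Both these sets are among the 5 with differing transcripts of sex chromosomes or Cdkn2. The mean difference was 0.23 (SE 0.19, adjusted p = 0.562, limma with Benjamini-Hochberg adjustment), and -0.05 without the 5 sets.

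Id1, a direct BMP target whose protein blocks helix-loop-helix factors, was lower after knockdown in 7 of 8 sets, the exception being 42-3 second. Lung sets held Id1 (ENSMUSG00000042745) at 63.1, 373 and 111 CPM after knockdown, against 192, 134 and 297 CPM in NT controls (42-3 first, 42-3 second, 6-2). In liver sets Id1 was at 92.8, 73.7, 116 and 122, 187 and 110, and 103 CPM after knockdown, against 231, 113, 303, 168 and 208 CPM in their NT controls. The knockdown library of 42-3 second was the highest of all 18. The mean difference was -0.70 (SE 0.29), with an unadjusted p of 0.0323 in limma and an adjusted p of 0.247, so that it did not pass after Benjamini-Hochberg adjustment. Without 42-3 second it was -1.04 (adjusted p = 0.153 in limma with Benjamini-Hochberg adjustment), and without the 5 sets -0.70 (adjusted p = 0.445).

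Id2, a relative of Id1, was lower after knockdown in 6 of 8 sets. Lung sets held Id2 (ENSMUSG00000020644) at 363, 689 and 169 CPM after knockdown, against 550, 212 and 471 CPM in NT controls (42-3 first, 42-3 second, 6-2). In liver sets Id2 was at 155, 99.7, 255 and 234, 451 and 519, and 373 CPM after knockdown, against 327, 141, 348, 566 and 323 CPM in their NT controls. The largest value was again in the knockdown library of 42-3 second, 1.69 above its control. The mean difference was -0.25 (SE 0.26, adjusted p = 0.661, limma with Benjamini-Hochberg adjustment) and -0.41 without the 5 sets. With each set left out in turn it lay between -0.14 (without 6-2) and -0.55 (without 42-3 second).

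Id3, the other BMP-induced Id gene here, ranged more widely between lines and was lower after knockdown in 5 of 8 sets. Lung sets held Id3 (ENSMUSG00000007872) at 82.7, 669 and 230 CPM after knockdown, against 144, 218 and 284 CPM in NT controls (42-3 first, 42-3 second, 6-2). In liver sets Id3 was at 194, 452, 61.3 and 77.6, 130 and 65.9, and 330 CPM after knockdown, against 662, 406, 368, 67.1 and 443 CPM in their NT controls. The G45-2 set was lower for both hairpins, by a mean log2 difference of -2.40, and the 6-3 hairpins lay on either side of their control. The mean difference was -0.42 (SE 0.38, adjusted p = 0.600, limma with Benjamini-Hochberg adjustment) and -0.65 without the 5 sets. It was -0.04 without G45-2 alone and -0.75 without 42-3 second. In 42-3 second all 3 Id genes and Smad6 were higher after knockdown, and in 42-3 first the same 3 Id genes were lower.

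**Figure D3:**
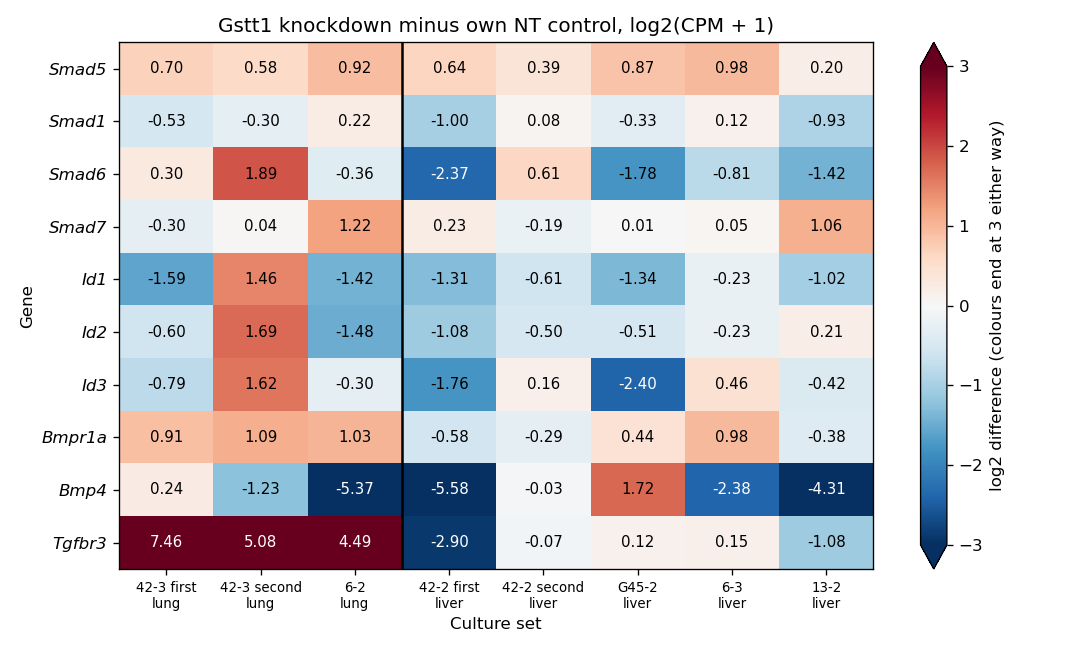
Difference of Gstt1 knockdown minus its own NT control in log2(CPM + 1) for each gene (down the page) and culture set (across, lung sets left of the line), with the hairpins averaged in G45-2 and 6-3. Smad5 is above 0 in all 8 sets (0.20 to 0.98), and Tgfbr3 reaches 7.46, 5.08 and 4.49 in the lung sets, past the end of the colour scale.

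Across the 18 libraries, after subtracting the mean of each culture set, the Id genes and Smad6 varied together. Pearson's r was 0.83 for Smad6 and Id3, 0.82 for Id1 and Id3, 0.81 for Id1 and Id2, 0.74 for Smad6 and Id1, 0.62 for Id2 and Id3 and 0.57 for Smad6 and Id2. Smad7, also induced by the pathway, went the other way, with r of -0.38 with Smad6, -0.41 with Id1, -0.33 with Id2 and -0.13 with Id3. Smad5 had r of -0.64 with Id1, 0.60 with Bmpr1a and -0.57 with Bmp4. Bmpr1a and Tgfbr3 had r of 0.78, and Smad7 and Bmp4 had r of -0.72. These are descriptions over 18 libraries of 6 lines that share cells, culture and controls, with no test.

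Bmpr1a, a type I receptor for BMPs, was higher after knockdown in 3 of 3 lung sets and in 2 of 5 liver sets. In the lung sets Bmpr1a (ENSMUSG00000021796) was at 143, 167 and 109 CPM after knockdown, against 75.6, 77.9 and 52.9 CPM in NT controls (42-3 first, 42-3 second, 6-2), and these groups did not overlap. Liver knockdown libraries held 72.8, 116, 95.9 and 113, 76.4 and 46.7, and 98.0 CPM of Bmpr1a, against 109, 142, 76.7, 29.8 and 128 CPM in their NT controls. Of all genes tested, 19.2% were higher in 3 of 3 lung sets and 12.4% had all 3 lung knockdown libraries above all 3 lung controls, so that such a pattern is common in these libraries. The difference averaged 1.01 ± 0.09 in lung sets (SD, n = 3) and 0.03 ± 0.66 in liver sets (SD, n = 5). The difference of lung minus liver was 0.89 (SE 0.40, unadjusted p = 0.0436, limma) and did not pass after Benjamini-Hochberg adjustment (adjusted p = 0.241, limma). Over all sets the difference was 0.42 (SE 0.23, adjusted p = 0.384, limma with Benjamini-Hochberg adjustment), and 0.49 without the 5 sets, which leaves no lung set. Over the 8 genes tested for a site difference in the knockdown effect, adjusted p in limma lay between 0.197 and 0.958, and 0 were called by either limma or edgeR, with Smad6 and Bmpr1a under an unadjusted p of 0.05 in both, as were 19.7% of all genes in limma and 17.3% in edgeR. Without lines 6-3 and 13-2, whose controls and knockdowns differ in library code, lung minus liver was 1.85 for Smad6 and 1.09 for Bmpr1a.

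Bmp4, a ligand of the BMP receptors, was lower after knockdown in 6 of 8 sets, in 4 of these by over 2 on the log2 scale. In the lung sets Bmp4 (ENSMUSG00000021835) was at 26.2, 44.8 and 0 CPM after knockdown, against 22.1, 107 and 40.3 CPM in NT controls (42-3 first, 42-3 second, 6-2). Liver knockdown libraries held 0.0746, 18.4, 2.66 and 8.13, 5.80 and 0.166, and 0.353 CPM of Bmp4, against 50.5, 18.9, 0.749, 13.7 and 25.8 CPM in their NT controls. In 6-2 the knockdown library had 0 reads against 601 in the control, which is at least 263-fold lower with 3 reads as the limit. In 42-2 first it had 1 read against 1023, a control level 677-fold the knockdown level (95% counting interval 121 to 26774). In 6-3 the shRNA 2 library had 2 reads against 201, a control level 82.3-fold higher (22.5 to 684), whereas the shRNA 1 library of the same line kept 5.80 CPM. Such intervals cover counting error only. The mean difference was -1.86 (SE 0.82), with an unadjusted p of 0.0426 and an adjusted p of 0.278 in limma with Benjamini-Hochberg adjustment. Without the 5 sets it was -0.18 (adjusted p = 0.963, limma with Benjamini-Hochberg adjustment).

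Tgfbr3, which encodes the co-receptor betaglycan, was all but absent in the NT controls of the lung lines and present in each of their knockdown libraries. In the lung sets Tgfbr3 (ENSMUSG00000029287) was at 188, 32.8 and 24.6 CPM after knockdown, against 0.0736, 0 and 0.134 CPM in NT controls (42-3 first, 42-3 second, 6-2). The first 42-3 set had 4794 reads after knockdown against 1 in its control, a ratio of 2548 (95% counting interval 457 to 100643), and 6-2 had 480 against 2 reads, a ratio of 183 (50.4 to 1517). The second 42-3 set had 276 reads after knockdown against 0, at least 162-fold higher with 3 reads as the limit. The log2 differences were 7.46, 5.08 and 4.49, a mean of 5.68 ± 1.57 (SD, n = 3). All 3 lung sets are among the 5 with differing sex chromosome or Cdkn2 transcripts. In 42-3 first, the ductal markers Krt7 and Cdh1 were at 0.0391 and 1.17 CPM after knockdown, against 414 and 503 CPM. In 6-2 they were at 320 and 179 CPM against 198 and 322 CPM. The 42-3 second knockdown library was among the most alike pairs, with that of 13-2 (47.2 CPM of Tgfbr3). Whether knockdown and control were the same cells was not tested.

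Liver lines gave no such pattern. Knockdown libraries held 11.4, 264, 42.3 and 44.5, 0.397 and 0, and 47.2 CPM of Tgfbr3, against 91.7, 278, 39.8, 0.0681 and 101 CPM in their NT controls (42-2 first, 42-2 second, G45-2, 6-3, 13-2). In line 6-3 there were 5 and 0 reads after knockdown against 1 in the control, so that this liver line was as low as the lung controls. The first 42-2 set had a difference of -2.90 and 13-2 one of -1.08, while the other liver sets lay between -0.07 and 0.15. Without the 5 sets, which hold all lung sets, the fitted Tgfbr3 difference was 0.11, against 1.53 over all sets. It was 0.81 without 42-3 first, 0.89 without 42-3 second and 2.07 without 42-2 first.

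Fibroblast markers differed in these sets too, and not in one direction. Of 8 such markers, 3 were higher and 4 lower after knockdown in 42-3 first, 7 higher and 0 lower in 42-3 second, and 3 higher and 4 lower in 6-2. Their summed level was 3877, 357 and 63.1 CPM after knockdown in these sets, against 58.5, 14.1 and 49.7 CPM in NT controls. Col3a1, a fibrillar collagen, was at 3625 and 75.6 CPM after knockdown in 42-3 first and 42-3 second, against 0.0736 and 0.472 CPM in NT controls, and Pdgfrb, a receptor of mesenchymal cells, at 219 and 37.4 CPM against 0.442 and 0.202 CPM. In 6-2 both were lower, with Col3a1 at 1.18 CPM after knockdown against 7.11 CPM in the control and Pdgfrb at 0.154 against 0.604 CPM, while Pdgfra, another receptor of mesenchymal cells, was at 55.0 against 1.07 CPM and Postn, a matrix protein, at 4.40 against 0.0671 CPM. In 42-3 first, Col1a1 was at 32.3 against 55.7 CPM. In G45-2, where Tgfbr3 differed by 0.12, Col3a1 was at 729 and 1236 CPM after knockdown against 357 CPM. In 42-2 first, where Tgfbr3 was lower after knockdown, Col3a1 was at 1.12 against 23.4 CPM and Pdgfrb at 0.224 against 15.4 CPM. Their part in the Tgfbr3 values was not tested.

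**Figure D4:**
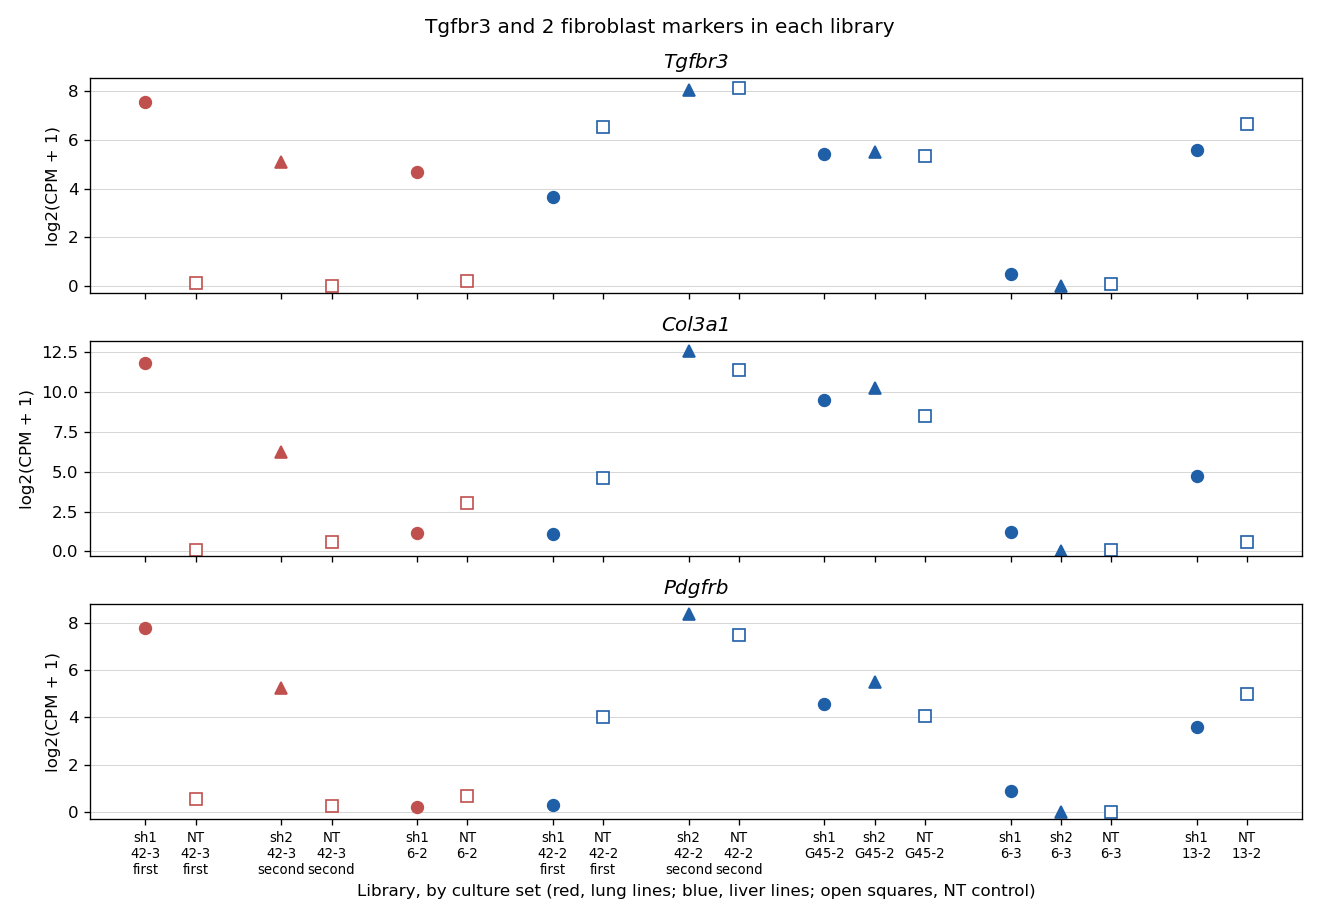
Tgfbr3, Col3a1 and Pdgfrb as log2(CPM + 1) in each library by culture set, with knockdown left of NT control and controls as open squares. Tgfbr3 is near 0 in the 3 lung controls (0 to 0.134 CPM) and at 24.6 CPM or more in the lung knockdown libraries, and these 2 markers are high with it in the 42-3 sets but not in 6-2, where Pdgfra (not plotted) was higher.

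Genes among the 5 whose pattern over the 18 libraries was most like Smad5 after subtracting set means, among 10567 genes with a mean of at least 5 CPM, were Mier3 (Pearson's r 0.99), Numa1 (0.96), Ssr1 (0.93) and Ubr1 (0.93). For Tgfbr3 the 5 were Farp2 (0.96), 6330408A02Rik (0.96), Fbxo9 (0.96), Eno2 (0.95) and Chpt1 (0.95). Among the 5 most like Id1 were Grb14 (0.90), Gpr64 (0.90), Gm2a (0.88) and Rnf113a2 (0.88). No shared function is implied.

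The site of origin was compared without knockdown. In NT controls, limma compared cell line means, 2 lung lines against 4 liver lines, and edgeR compared the 8 libraries with no term for line. The first and second NT controls averaged for line 42-2 were unlike in part. Xist was at 0.0494 and 41.7 CPM in them, Cdh1 at 580 and 9.70 CPM and Smad6 at 108 and 23.1 CPM. Ddx3y was alike, at 3.46 and 3.00 CPM. Whether these controls were the same cells was not tested. Of the 8 genes other than Smad5 and Tgfbr3, 0 were called by either. An unadjusted p under 0.05 was found for 0 in either, where limma called 0.0309% of all genes and 13.1% had such a p. Smad6 differed by -0.70 (SE 0.31) between lung and liver with an adjusted p of 0.399, and Bmp4 by 1.90 (SE 1.11) with an adjusted p of 0.490 (limma with Benjamini-Hochberg adjustment). On line means, the tested genes other than Smad6 and Bmp4 differed by -0.36 to 0.23. Library code CFa8 held 2 lung and 1 liver control, and CFa11 held 1 lung and 3 liver controls. The Bmp4 difference changed sign between these codes, at -0.74 within CFa8 and 3.61 within CFa11. Those of Smad7, Id1, Id2 and Bmpr1a also changed sign, while that of Smad6 was -1.69 and -1.32.

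The control libraries compared here are also part of the pattern that chose Smad5 and Tgfbr3, so their values are given with no test. Smad5 differed by 0.00 (SE 0.26). Tgfbr3 averaged 0.12 ± 0.09 in lung and 4.86 ± 3.28 in liver line means of log2(CPM + 1) (SD, n = 2 and n = 4). The difference was -4.74, and with each line left out in turn it lay between -6.33 (without 6-3) and -3.92 (without 42-2). Within CFa8 and CFa11 it was -6.39 and -4.04.

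The pathway as a whole was examined by 12 lists of ligands, receptors, SMADs, antagonists, regulators and targets, holding 103 tested genes apart from Smad5 and Tgfbr3. The other 8 genes described above are among the 103, so the lists are not separate from them. Of the 103, 0 were called for knockdown by limma or by edgeR, where limma called 0.0387% of all genes. Since Gstt1 itself was not called in the same limma fit, this is not evidence of no change. An unadjusted p under 0.05 was found for 13 in each, against 17.1% of all genes in limma and 15.1% in edgeR. The median difference of all genes tested was -0.03, and 47.0% were higher after knockdown.

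Among ligands, 5 of 8 tested BMP and GDF genes were higher after knockdown (median 0.27, and -0.09 without the 5 sets). That median turned with G45-2 (-0.07), 42-3 second (-0.07) or 13-2 (-0.20) left out. Bmp1, a procollagen protease named with this family, averaged 163 ± 77.3 CPM in knockdown and 99.5 ± 41.1 CPM in NT control libraries (SD, n = 10 and n = 8), a fitted difference of 0.72 that did not pass (adjusted p = 0.169, limma with Benjamini-Hochberg adjustment). Of the TGF-beta, activin and inhibin ligands 3 of 7 were higher (median -0.40, 0.10 without the 5 sets and -0.05 without 42-3 first).

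Type I receptors had 3 of 5 genes higher (median 0.01, and 0.16 without the 5 sets) and type II receptors 3 of 4 (median 0.17), against 1 of 4 without the 5 sets (median -0.19), and Acvr1, which binds BMPs and activins, differed by 0.33. All 7 co-receptors tested, Tgfbr3 included, were higher after knockdown (median 0.84). Without the 5 sets this was 5 of 7, with a median of 0.11. Nrp2, a neuropilin that binds semaphorins and VEGF, averaged 166 ± 71.0 CPM in knockdown and 91.4 ± 72.8 CPM in NT control libraries, a difference of 0.97 (SE 0.24, adjusted p = 0.112, limma with Benjamini-Hochberg adjustment), and 0.29 without the 5 sets.

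Of 6 receptor and common SMADs, 4 were higher (median 0.29, and 0.16 without the 5 sets), Smad5 among them. Smad4, the common partner of all receptor SMADs, averaged 256 ± 55.8 CPM in knockdown and 183 ± 34.7 CPM in NT control libraries, a difference of 0.41 (SE 0.17, adjusted p = 0.242, limma with Benjamini-Hochberg adjustment). Smad2, of the TGF-beta branch, differed by 0.41 (SE 0.20). Among Smad6, Smad7 and Bambi, a decoy receptor, 1 of 3 was higher (median -0.17, and -0.74 without the 5 sets). That median was 0.09 without 6-2, 0.02 without G45-2, 0.02 without 42-2 second and 0.05 with quantile normalization.

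Secreted antagonists had 7 of 11 genes higher (median 0.54, 0.20 without the 5 sets and 0.03 without 42-3 second alone), with Twsg1, a modulator of BMP binding, at 0.54 and Bmper, a BMP-binding protein, at 1.40, neither past the test. Intracellular regulators had 16 of 21 higher (median 0.13, and 0.09 without the 5 sets), among them Map3k7, the kinase TAK1, at 0.60 and Ski, a SMAD co-repressor, at 0.59. The list of BMP target genes includes Id1, Id2, Id3, Smad6 and Smad7, which are described above. It had 13 of 19 genes lower (median -0.25), and 16 of 19 lower without the 5 sets (median -0.43). Without G45-2 this was 10 of 19 (median -0.04), without 42-3 second 16 of 19 (median -0.54), and with quantile normalization 11 of 19. In that list Junb, an AP-1 subunit, averaged 697 ± 395 CPM in knockdown and 1805 ± 1098 CPM in NT control libraries, a difference of -1.26 (SE 0.26, adjusted p = 0.0820, limma with Benjamini-Hochberg adjustment), and -1.70 without the 5 sets. With 1 knockdown term it passed (adjusted p = 0.0422, limma with Benjamini-Hochberg adjustment). It did not pass in edgeR, where the smallest adjusted p of the list was 0.134 (Benjamini-Hochberg). TGF-beta target genes had 9 of 15 lower (median -0.07, -0.17 without the 5 sets and 0.13 without 42-2 first).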

How the data were processed

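The authors deposited 1 table of CPM values for 18 libraries, by Ensembl identifier and symbol. TruSeq libraries were made from 1.3 µg of total RNA, per the labels' protocols. Reads were placed on mm9, per the submitters' processing notes. Aligner and counter: not given in the sources used here. Every CPM value is a whole multiple of what 1 read is worth in its library (100% within 0.01 reads), which gave the read totals. The most alike libraries differed by a chi-square per degree of freedom of 35.1, so none was counted as a repeat. Also among the most alike pairs (71.8) were 42-3 second with shRNA 2 and 13-2 with shRNA 1, of lines labelled lung and liver. These libraries held 0 and 0.0706 CPM of Cdkn2b, against 101 and 211 CPM in their NT controls. Why they were alike was not tested.

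A filter of 1 CPM in 4 or more libraries left 12931 genes, which limma 3.58.1 (R 4.3.3, trend, two-sided, Benjamini-Hochberg, threshold 0.05) tested on log2(CPM + 1), blocked by culture set. For knockdown the effects of both hairpins were averaged, and a knockdown by site term gave lung minus liver. In limma, NT controls were compared on line means. As an alternative, edgeR 4.0.16 (quasi-likelihood) on the recovered read counts called 0 genes for knockdown, 13 for the site difference in knockdown and 1 between sites. Its comparison between sites took the 8 NT control libraries with no term for line. Libraries were paired by the cell line in the labels, with lines 42-3 and 42-2 divided by library code. Deviations of knockdown and control libraries of a set from their group means correlated at -0.36 to 0.70 across genes (median 0.02, 4 of 10 above 0.1).

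The genes and lists were chosen with earlier results of these data known. All 10 genes are given with values for knockdown. For the site difference in knockdown, tested genes with an unadjusted p under 0.05 are given, and the rest as a range. Between NT controls, Smad6, Bmp4, Smad5 and Tgfbr3 are given, and the rest as a range. From each list at most 3 genes are named, of smallest unadjusted p for knockdown with a mean of at least 5 CPM. The site comparison had been planned with a test of all 10 genes, and no p is given there for Smad5 and Tgfbr3, because the NT controls entered the pattern that chose them. Some genes and alleles that these rules or the labels name are not reported here. The fits were tested on simulated data. Intervals, tables and plots used scipy 1.17.1 and numpy 2.4.6 in Python 3.11.15, with pandas 2.3.3 and matplotlib 3.10.9.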

Additional observations from a re-analysis of the deposited data

Results flagged for a closer look

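In 30 groups of 4 to 8 libraries (10 genes in the shRNA 1, shRNA 2 and NT control groups), 1 library lay far from the rest of its group by Dixon's criterion for 7 values, where chance alone gives about 1 in 20 groups. Among the shRNA 2 libraries these were Smad7 at 59.8 CPM in the second 42-2 set, Id1 at 373 CPM in the second 42-3 set and Tgfbr3 at 264 CPM in the second 42-2 set. Among the shRNA 1 libraries they were Bmp4 at 26.2 CPM and Tgfbr3 at 188 CPM, both in the first 42-3 set. Among the NT controls they were Bmp4 at 107 CPM in the second 42-3 set and Tgfbr3 at 278 CPM in the second 42-2 set.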

How the results depend on the processing

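For knockdown, 5 genes of the whole table were called. No filter on low values, edgeR, leaving out lines 6-3 and 13-2, and leaving out the 5 sets of differing sex chromosome or Cdkn2 transcripts, alone or with 42-2 second, each gave 0. No replicate block gave 84, the cell line as replicate block 51, 1 knockdown term 91, and leaving out each set 0 to 8. For lung minus liver knockdown effects 65 genes were called, against 4 with no replicate block, 13 with edgeR, 0 without lines 6-3 and 13-2, and 23 to 122 leaving out each set. Between lung and liver controls 4 were called, against 2 with a pseudocount of 0.5, 18 with no filter, 14 at a filter of 5 CPM, 78 with a correlation within line, 1 with edgeR and 0 to 167 leaving out each line. The causes were not tested. Smad7 turned to -0.052 for knockdown without the 5 sets, and to 0.0060 (median-ratio rescaling), 0.15 (correlation within line) and 0.091 (edgeR) between sites. Leaving out each line gave, between sites, -0.14 to 0.10 for Smad5, -0.20 to 0.12 for Smad7, -0.34 to 0.54 for Id1, -0.0013 to 0.47 for Id2 and -0.96 to 0.049 for Id3. Of 407 alternative values of single genes, 14 turned, 1 (Tgfbr3 between sites with edgeR) moved past the spread, and the other 392 kept their direction and, where tested (Smad5 and Tgfbr3 were not), their side of the threshold. For knockdown, the share of higher genes among those with an unadjusted p under 0.05 was 50.4% with quantile normalization, against 41.1% without. A gene under about 3 reads (0.117 to 0.357 CPM) could not be told from 0.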

Other observations

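Basic helix-loop-helix factors and their partners, which Id proteins bind or act beside, had 3 of 6 tested genes higher and 3 lower after knockdown (median -0.16, -0.56 without the 5 sets of differing sex chromosome or Cdkn2 transcripts, and 0.07 without 6-3). Bhlhe40, a repressor of the clock and stress responses, averaged 223 ± 112 CPM in knockdown and 438 ± 237 CPM in NT control libraries (SD, n = 10 and n = 8), a difference of -0.99 (SE 0.27, adjusted p = 0.121, limma with Benjamini-Hochberg adjustment). Myc averaged 487 ± 213 CPM in knockdown and 770 ± 335 CPM in NT control libraries, a difference of -0.70 (adjusted p = 0.259). Tcf4, an E protein, averaged 101 ± 35.5 CPM in knockdown and 70.6 ± 24.9 CPM in NT control libraries, a difference of 0.56 (adjusted p = 0.182). Without the 5 sets the differences were -1.12 for Bhlhe40, -0.98 for Myc and 0.09 for Tcf4. None of these passed.

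For the site difference in the knockdown effect, 1 of the 103 list genes was called by limma and 0 by edgeR, where limma called 0.503% of all genes. An unadjusted p under 0.05 was found for 25 in limma and 18 in edgeR, against 19.7% and 17.3% of all genes. It was Ltbp2, a matrix protein of the family that binds latent TGF-beta, named after its value was seen, with lung minus liver of 2.94 (SE 0.44, adjusted p = 0.0175, limma with Benjamini-Hochberg adjustment, against 0.0640 in edgeR).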
